A study of Homo sapiens with 4 samples.

Results

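Homologous recombination and Fanconi repair are represented here by 44 genes, chosen by name from the 29655 gene names of an RNA-seq experiment on PRMT5 in UMSCC74B cells. UMSCC74B is a head and neck squamous cell carcinoma (HNSCC) line. PRMT5 is the main enzyme that makes symmetric dimethylarginine on proteins. The cells, wild type by their label, received a plasmid with a control shRNA (group control, 2 libraries) or a PRMT5 shRNA (group PRMT5 KD, 2 libraries) and were collected after 72 h. The labels speak of transfection, while the study's methods describe lentiviral particles, and no source says whether the 2 libraries of a group came from separate cultures, so p-values measure only the spread between these libraries, which may be technical. The comparison addressed how RNA levels differed between cells given the PRMT5 shRNA and cells given the control shRNA.

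Homologous recombination mends a broken DNA double strand by copying the intact sister chromatid. Nucleases first trim the broken ends to single strands, mediators of the BRCA family then prepare these strands for pairing with the template, and helicases and nucleases finally resolve the joined molecules. The Fanconi pathway unhooks crosslinks between DNA strands at stalled forks. Its core complex attaches ubiquitin to a substrate pair, FANCI and FANCD2, and it hands the resulting break to recombination. Many of these genes are transcribed most strongly around S phase, when a sister chromatid exists.

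Total counts per library were 52185289 and 65964558 in control, against 64233361 and 55328869 under PRMT5 KD. The share on ribosomal RNA was 14.2% to 15.3% in control, 26.2% in PRMT5 KD replicate 1 and 18.0% in PRMT5 KD replicate 2. PRMT5 itself, the targeted gene, had 94.3 and 84.2 CPM (counts scaled to the depth of the library) in control against 132 and 149.5 in the libraries labelled PRMT5 KD. The transcript was thus higher, not lower, under the knockdown label (log2 fold change 0.66, SE 0.12, FDR 0.00547), and without control replicate 2 the value was 0.58 with an FDR of 0.0678. The study checked PRMT5 silencing at the protein level by immunoblot, which is not analysed here. Whether the labels of the groups were exchanged was not tested, and an exchange would reverse every direction given here. PRMT5 KD below names this label, and all directions are those of the libraries labelled PRMT5 KD relative to control. Most defining markers of a squamous epithelium were close to absent, with counts of 0, 0, 0 and 4 for KRT5 and of 9, 4, 2 and 4 for CDH1. TP63 and DSG3, the 2 of 8 such markers with enough counts to test, fell by 1.35 and 0.85 on the log2 scale.

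Markers of other cell types also moved with the groups. Among 10 of them, the T cell marker CD3E had 0 counts in every library and the leukocyte marker PTPRC at most 5. Of the 6 that could be tested, 5 fell, COL1A1, COL1A2, DCN, PDGFRB and the endothelial marker PECAM1, and CD68 rose by 0.63 on the log2 scale. The largest fall was 5.27 for PECAM1. Their summed level was 474 and 554 CPM in control against 215 and 240.4 CPM under the PRMT5 KD label, and neither the part of this shift in the repair gene values nor whether both groups hold the same cells was tested.

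Promoters are shown first for 6 genes. They are the largest riser of the strand exchange, end resection, BRCA mediator and Fanconi core groups, and the 2 genes called lower. RAD54L (log2 fold change 2.28), BRCA1 (2.07) and FANCI (1.96) rose more than UBE2T (1.94) and are not shown. Each window is the RefSeq promoter on GRCh38.p14, from 250 bases before to 50 bases after the annotated start, written 5′ to 3′ on the gene's strand. Capitals mark matches, on either strand, to an E2F-type motif (the letters TTTCGCG, alternatively TTTGGCG, alternatively TTTCCCG), to the cell cycle homology region or CHR, spelled TTTGAA, or to the CCAAT box, and no matches overlapped one another in these windows.
RAD51AP1, chr12:4538640-4538939, plus strand: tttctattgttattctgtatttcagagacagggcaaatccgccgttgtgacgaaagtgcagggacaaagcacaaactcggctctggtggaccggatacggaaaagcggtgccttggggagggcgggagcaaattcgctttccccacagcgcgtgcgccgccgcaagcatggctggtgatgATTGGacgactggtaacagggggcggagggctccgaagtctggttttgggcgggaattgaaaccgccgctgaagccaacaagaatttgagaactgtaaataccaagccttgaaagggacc
EXO1, chr1:241847954-241848253, plus strand: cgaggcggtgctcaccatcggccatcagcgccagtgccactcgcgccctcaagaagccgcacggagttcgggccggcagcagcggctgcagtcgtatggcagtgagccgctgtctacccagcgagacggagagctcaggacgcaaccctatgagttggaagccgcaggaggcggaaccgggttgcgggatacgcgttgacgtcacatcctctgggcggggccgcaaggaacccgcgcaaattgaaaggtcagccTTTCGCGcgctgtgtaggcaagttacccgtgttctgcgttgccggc
BRIP1, chr17:61863479-61863778, minus strand: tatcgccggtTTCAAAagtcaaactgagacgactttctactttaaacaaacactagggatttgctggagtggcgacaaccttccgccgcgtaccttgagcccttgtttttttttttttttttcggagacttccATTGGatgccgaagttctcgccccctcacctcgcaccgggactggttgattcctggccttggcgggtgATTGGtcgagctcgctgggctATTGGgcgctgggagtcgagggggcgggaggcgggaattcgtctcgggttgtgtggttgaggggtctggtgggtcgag
UBE2T, chr1:202341887-202342186, minus strand: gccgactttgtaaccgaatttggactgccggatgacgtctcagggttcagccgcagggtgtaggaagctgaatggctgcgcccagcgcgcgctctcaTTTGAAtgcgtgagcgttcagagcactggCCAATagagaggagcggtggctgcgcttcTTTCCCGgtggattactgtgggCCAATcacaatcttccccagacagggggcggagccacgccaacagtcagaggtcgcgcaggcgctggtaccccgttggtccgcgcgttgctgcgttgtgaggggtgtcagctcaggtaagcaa
RAD50, chr5:132556727-132557026, plus strand: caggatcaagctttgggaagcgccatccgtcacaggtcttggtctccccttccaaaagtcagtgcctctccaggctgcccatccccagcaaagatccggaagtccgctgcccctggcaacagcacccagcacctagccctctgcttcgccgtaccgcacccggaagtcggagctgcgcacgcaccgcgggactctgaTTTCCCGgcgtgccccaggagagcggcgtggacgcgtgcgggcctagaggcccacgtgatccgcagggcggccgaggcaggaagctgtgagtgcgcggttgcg
RAD52, chr12:949645-949944, minus strand: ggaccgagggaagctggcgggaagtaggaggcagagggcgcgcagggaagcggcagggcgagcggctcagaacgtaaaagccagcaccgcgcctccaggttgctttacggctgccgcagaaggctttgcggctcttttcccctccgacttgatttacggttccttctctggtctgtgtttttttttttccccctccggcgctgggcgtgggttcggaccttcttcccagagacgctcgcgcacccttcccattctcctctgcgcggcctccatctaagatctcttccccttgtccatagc

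E2F factors drive S phase genes, the CHR is bound by complexes that repress or activate late cell cycle genes, and CCAAT is the box read by NF-Y. The UBE2T window held 1 E2F-type match, 1 CHR and 2 CCAAT boxes. The EXO1 window held an E2F-type match 5 bases after the start, the BRIP1 window a CHR and 3 CCAAT boxes, and the RAD51AP1 window a CCAAT box. The RAD50 window also held an E2F-type match, 53 bases before the start, and the RAD52 window held none of the 3 motif types. Of the 44 genes, 40 had a RefSeq window, and in 33 of these the start lay within 100 bases of the start of the canonical transcript. An E2F-type match stood in 8 of the 33 (24.2%), against 12.4% of 8207 promoters of tested genes. The match was present in 5 of 26 repair genes called higher (19.2%, against 16.3% of all 1781 promoters of genes called higher) and in 3 of 6 not called higher. The CHR stood in 5 of 33 (15.2%, against 9.08% of the tested promoters) and CCAAT in 14 of 33 (42.4%, against 38.7%). Among the 26 repair genes called higher the shares were 19.2% for the CHR and 42.3% for CCAAT, against 14.8% and 45.1% of all promoters of genes called higher. These matches describe letters in a window and are not shown to be bound sites.

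Transcripts of the repair genes mostly stood higher under the PRMT5 KD label than in control. A gene was tested if it is protein-coding and reached an RPKM (reads scaled for exon length and depth) of 0.5 in both libraries of a group, and it was called at an FDR under 0.05, adjusted over all 11897 genes tested, with a log2 fold change past 0.5 in size. Of the 44 genes, 43 were tested, and 34 of them were called higher, against 21.2% of all genes tested. Another 2, RAD52 and RAD50, were called lower, against 24.3% of all genes tested. The other 7 were not called. The median log2 fold change of the 43 was 1.23, a fold of 2.34, with a range of -0.75 to 2.73, against a median of -0.0074 over all genes tested. Among the repair genes called higher, 24 rose at least 2-fold, where 1032 of the 11897 genes tested were called higher with such a rise. Another cut, at least 4-fold, held 5 repair genes, and its share over all genes is not given here. In bulk RNA, more transcript per cell cannot be told apart from more cells in a state that carries these transcripts.

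Both PRMT5 KD libraries lay on the same side of both control libraries for 41 of the 43 genes. This held for 80.5% of all genes tested, so the pattern is common in these data and tells little about the repair genes. FANCF and RNF168 were the 2 genes with overlapping groups. RAD51C and FANCB passed the filter only through their PRMT5 KD libraries. Without them, 32 of 41 genes were called higher and 2 lower, with a median of 1.13. FANCL, the ubiquitin ligase of the core complex, failed the filter because its annotated exons sum to 37977 bases, and it stood at 12.2 and 10.7 CPM in control against 17.4 and 24.4 CPM under PRMT5 KD. In a fit with no filter on low counts, its log2 fold change was 0.92 with an SE of 0.19 and an FDR of 0.00374. That fit covered all 44 genes and called 35 higher and 1 lower, where it called 17.5% of 16840 genes higher and 19.2% lower.

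**Figure D1:**
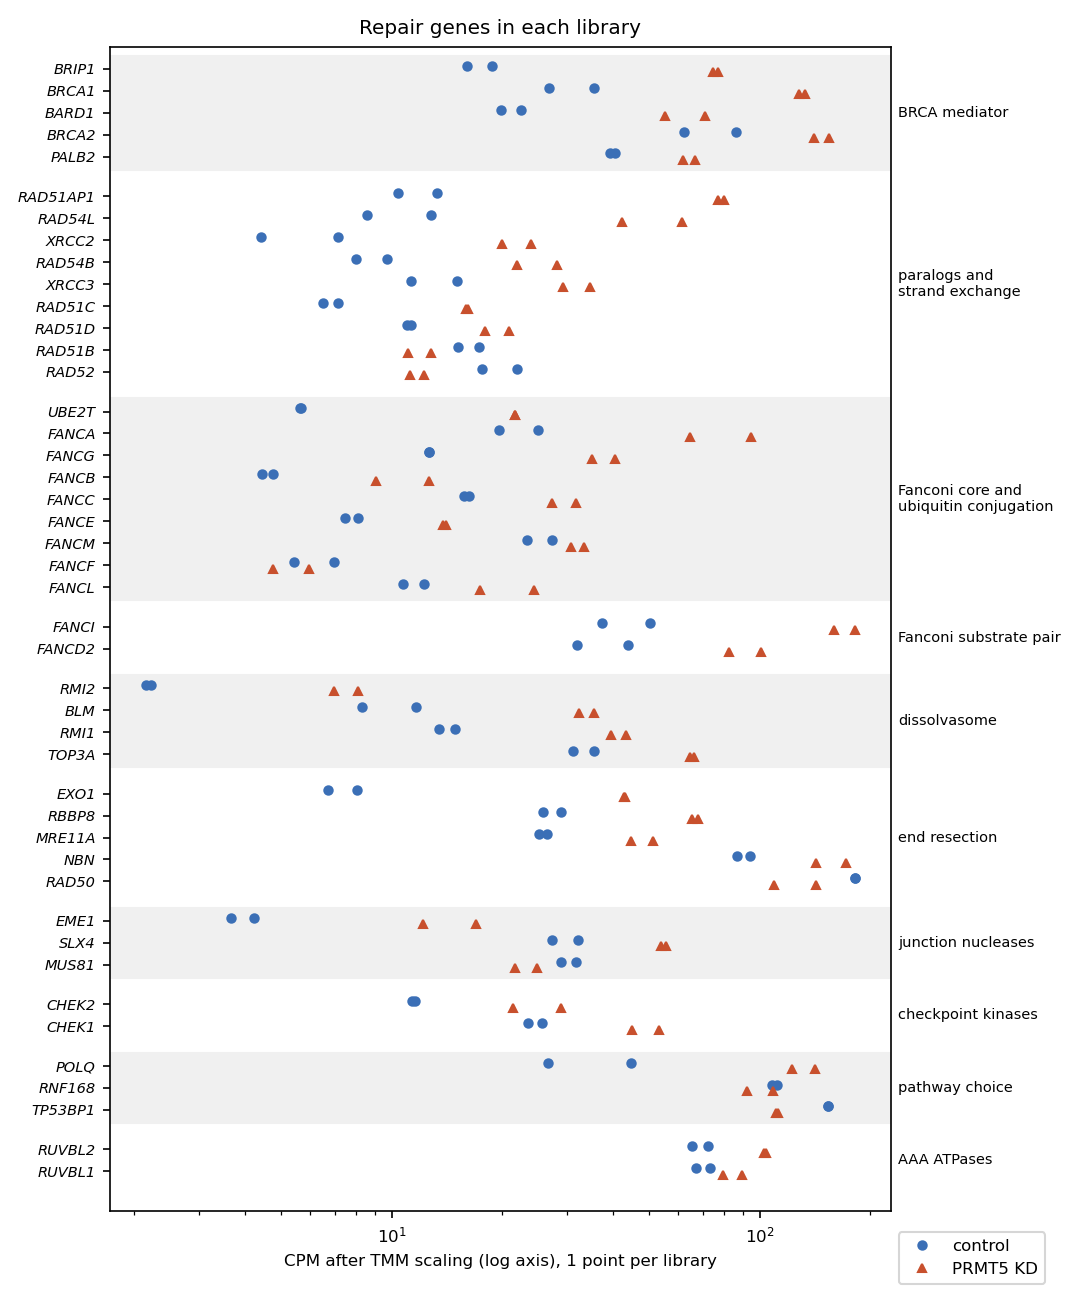
CPM of each of the 44 repair genes in each library on a log axis, grouped by role and ordered by fold change, with circles for the 2 control libraries and triangles for the 2 PRMT5 KD libraries. Triangles lie to the right of both circles for most genes, to the left for RAD52, RAD50, RAD51B, MUS81 and TP53BP1, and among them for FANCF and RNF168.

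BRCA mediators rose together, all 5 of 5. BRIP1, the helicase partner of BRCA1 (chr17:61679139-61863559), stood at 18.7 and 16.0 CPM in control against 77.0 and 74.6 CPM under PRMT5 KD. Both PRMT5 KD libraries were far above both control libraries, a 4.37-fold rise (log2 fold change 2.13, SE 0.13, FDR 0.000232). BRCA1, which starts the assembly of the mediator complex (chr17:43044295-43170245), had 35.4 and 26.9 CPM in control against 133 and 128 CPM, a 4.19-fold rise (log2 fold change 2.07, SE 0.16, FDR 0.000343). Its obligate partner BARD1 rose by a log2 fold change of 1.58. BRCA2, a tumour suppressor that acts at the resected single strands, rose by 0.99. PALB2, the bridge between BRCA1 and BRCA2 (chr16:23603160-23641321), changed least, from 40.4 and 39.3 CPM to 66.7 and 61.8 CPM. Its groups were well apart at a 1.61-fold rise (log2 fold change 0.69, SE 0.11, FDR 0.00298).

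Of the 9 paralogs and strand exchange factors, 7 rose, 1 fell and 1 was not called. RAD51AP1, which helps a broken strand pair with its template (chr12:4538798-4560047), had the largest rise of all 43 genes. It stood at 13.3 and 10.4 CPM in control against 77.3 and 79.9 CPM under PRMT5 KD. Both PRMT5 KD libraries were far above both control libraries, and the fitted fold was 6.64 (log2 fold change 2.73, SE 0.15, FDR 0.000208). The translocase genes RAD54L and RAD54B, which remodel DNA during strand pairing, rose by 2.28 and 1.5 on the log2 scale. Among the paralogs, which support strand exchange, XRCC2 rose by 1.93, XRCC3 by 1.28, RAD51C by 1.23 and RAD51D by 0.79. RAD51B, the remaining paralog, went the other way, at 17.3 and 15.1 CPM in control against 11.1 and 12.8 CPM under PRMT5 KD. Its log2 fold change of -0.44 did not pass the test (SE 0.16, FDR 0.0509).

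RAD52, which anneals single strands and has a backup role where BRCA2 is lost (chr12:911736-990053), showed the largest fall of the 43 genes. It had 21.9 and 17.6 CPM in control against 12.3 and 11.2 CPM under PRMT5 KD. Both PRMT5 KD libraries were below both control libraries, a 1.68-fold fall (log2 fold change -0.75, SE 0.16, FDR 0.00937). Without control replicate 1 the value was -0.58 with an FDR of 0.079, and the call was lost. RAD52 and RAD51AP1 thus lay at the opposite ends of the same functional group.

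In the Fanconi core and ubiquitin conjugation group, 6 of 8 tested genes were called higher and none was called lower. UBE2T, the ubiquitin-conjugating enzyme of the pathway (chr1:202331544-202341984), had the largest rise. It stood at 5.66 CPM in both control libraries and at 21.7 CPM in both PRMT5 KD libraries, a 3.83-fold rise (log2 fold change 1.94, SE 0.14, FDR 0.000316). The libraries of each group were nearly equal. Other subunits of the core complex followed, with log2 fold changes of 1.84 for FANCA, 1.58 for FANCG, 1.24 for FANCB, 0.88 for FANCC and 0.84 for FANCE. FANCM, the translocase that anchors the core complex to DNA, had a log2 fold change of 0.34 (SE 0.14, FDR 0.0743) and was not called. FANCF, an adaptor of the same complex (chr11:22622533-22625823), had 5.43 and 6.97 CPM in control against 4.77 and 5.96 CPM under PRMT5 KD. Its groups overlapped, and its log2 fold change was -0.21 (SE 0.22, FDR 0.451).

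Both genes of the Fanconi substrate pair rose. FANCI (chr15:89243945-89317261) stood at 50.4 and 37.3 CPM in control against 159 and 182 CPM under PRMT5 KD, a 3.89-fold rise (log2 fold change 1.96, SE 0.17, FDR 0.000508). FANCD2 (chr3:10026370-10101932) had 43.8 and 31.8 CPM in control against 82.7 and 101 CPM under PRMT5 KD, a 2.43-fold rise (log2 fold change 1.28, SE 0.19, FDR 0.0024). The groups of both genes were apart, and in both genes control replicate 1 was above control replicate 2. Per transcript length, the FANCI to FANCD2 ratio was 1.24 and 1.26 in control, against 2.07 and 1.94 under PRMT5 KD.

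The 4 dissolvasome genes, whose products separate double Holliday junctions without crossing over, all rose. RMI2 (chr16:11249619-11381662), a small stabilising subunit, had the largest fold of the group, from 2.15 and 2.22 CPM to 8.13 and 6.96 CPM. Its lowest library held 85 counts, the fewest of any of the 44 genes, and the rise was 3.45-fold (log2 fold change 1.79, SE 0.21, FDR 0.00104). The helicase BLM rose by 1.76 and the scaffold RMI1 by 1.55 on the log2 scale. TOP3A, the topoisomerase of the complex (chr17:18271428-18315007), changed least, from 35.6 and 31.0 CPM to 66.4 and 64.6 CPM, with the groups apart (log2 fold change 0.98, SE 0.12, FDR 0.00121).

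End resection genes split, with 4 of 5 higher and RAD50 lower. EXO1, the long-range resection exonuclease (chr1:241847967-241895148), had 8.06 and 6.73 CPM in control against 43.2 and 42.8 CPM under PRMT5 KD. Its rise of 5.82-fold was the second largest of the 43 genes (log2 fold change 2.54, SE 0.15, FDR 0.000215). RBBP8, which encodes the CtIP protein that starts resection, rose by 1.29, MRE11A, the nuclease, by 0.90 and NBN, its regulatory partner, by 0.80 on the log2 scale. RAD50, the ATPase of the same MRE11-RAD50-NBN complex (chr5:132556019-132646349), stood at 182 CPM in both control libraries and at 142.5 and 109 CPM under the PRMT5 KD label. Both PRMT5 KD libraries were lower, a 1.44-fold fall (log2 fold change -0.53, SE 0.15, FDR 0.0242). This fold sits close to the threshold of 0.5, and at this threshold the call was kept in 6 of 14 alternative fits. It was lost on leaving out control replicate 1 (-0.53, FDR 0.117), control replicate 2 (-0.53, FDR 0.128) or PRMT5 KD replicate 2 (-0.34, FDR 0.0507).

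The 3 genes of the MRE11-RAD50-NBN complex changed their proportions. Per transcript length, RAD50 was 5.69 and 6.0 times MRE11A in control, against 2.64 and 1.76 times MRE11A under PRMT5 KD. RAD50 over NBN went from 1.08 and 1.17 to 0.559 and 0.356. NBN over MRE11A stayed nearer to level, at 5.28 and 5.12 in control, against 4.72 and 4.93 under PRMT5 KD. These ratios hold the 2 directions already given for the single genes, and they concern transcripts, not protein.

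Of the 3 genes for junction nucleases, EME1 and SLX4 rose. EME1, the partner subunit of MUS81 (chr17:50373220-50381483), had 3.66 and 4.22 CPM in control against 12.2 and 16.9 CPM under PRMT5 KD, a 3.69-fold rise with the groups apart (log2 fold change 1.88, SE 0.22, FDR 0.001). SLX4, the scaffold that gathers the nucleases, rose by 0.89. MUS81, the catalytic subunit (chr11:65857126-65867653), had 31.7 and 28.8 CPM in control against 24.9 and 21.6 CPM under PRMT5 KD. The groups did not overlap, yet the log2 fold change of -0.38 did not pass the test (SE 0.14, FDR 0.0536). Per transcript length, MUS81 was 8.54 and 6.73 times EME1 in control, against 2.02 and 1.26 times EME1 under PRMT5 KD.

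Both checkpoint kinase genes about doubled. CHEK2, which acts below ATM (chr22:28687743-28742422), had 11.4 and 11.6 CPM in control against 21.4 and 28.8 CPM under PRMT5 KD, with the groups apart (log2 fold change 1.13, SE 0.18, FDR 0.00284). CHEK1, which acts below ATR (chr11:125625163-125676255), had 25.7 and 23.5 CPM in control against 45.0 and 53.4 CPM under PRMT5 KD (log2 fold change 1.00, SE 0.14, FDR 0.00163).

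The pathway choice genes, which steer a break towards one repair route, went different ways. POLQ, the polymerase of microhomology-mediated joining (chr3:121431431-121545988), rose 3.70-fold, from 44.7 and 26.6 CPM to 122 and 141 CPM (log2 fold change 1.89, SE 0.26, FDR 0.003). Control replicate 1 was well above control replicate 2, and both stayed below the PRMT5 KD libraries. TP53BP1, which shields ends from resection (chr15:43403061-43510728), had 153 and 154 CPM in control against 112 and 111 CPM under PRMT5 KD. The groups were tight and apart, with an FDR of 0.0104, but the log2 fold change of -0.46 (SE 0.10) fell short of the fold threshold. RNF168, the ubiquitin ligase that recruits TP53BP1, had 108 and 112 CPM in control against 109 and 92.3 CPM under PRMT5 KD, and its log2 fold change was -0.13 (SE 0.12, FDR 0.407). BRCA1 over TP53BP1, per transcript length, was 0.338 and 0.256 in control, against 1.73 and 1.70 under PRMT5 KD.

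The AAA ATPase genes RUVBL2 and RUVBL1, subunits of chromatin remodellers and of the R2TP chaperone, were the most abundant of the 44 per transcript length in both groups. RUVBL2 (chr19:48993562-49015970) rose 1.5-fold, from 72.2 and 65.6 CPM to 104 and 102.5 CPM (log2 fold change 0.58, SE 0.11, FDR 0.00552). Without control replicate 2 its value was 0.52 with an FDR of 0.0643. RUVBL1 (chr3:128064778-128153914) had 73.2 and 67.2 CPM in control against 79.5 and 89.6 CPM under PRMT5 KD, and its log2 fold change of 0.27 was not called (SE 0.12, FDR 0.0981).

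**Figure D2:**
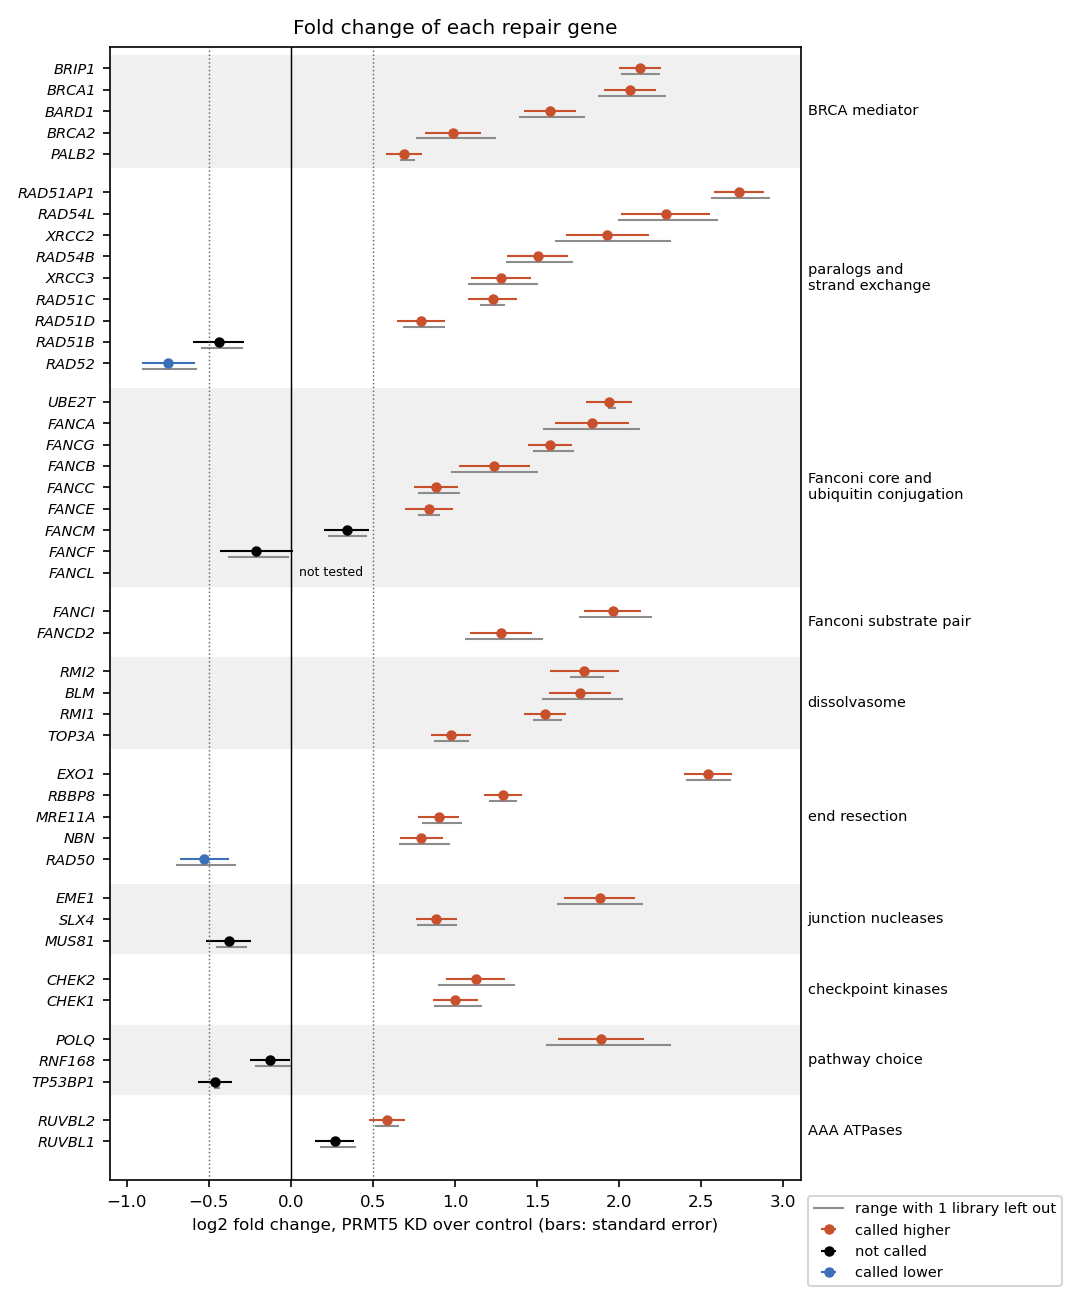
Log2 fold change of each repair gene with its standard error, coloured by call, with dotted lines at the thresholds of -0.5 and 0.5 and a grey line for the range over the 4 fits that each leave out 1 library. RAD51AP1 at 2.73 and RAD52 at -0.75 mark the ends, and the grey line of RAD50 crosses the threshold.

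**Figure D3:**
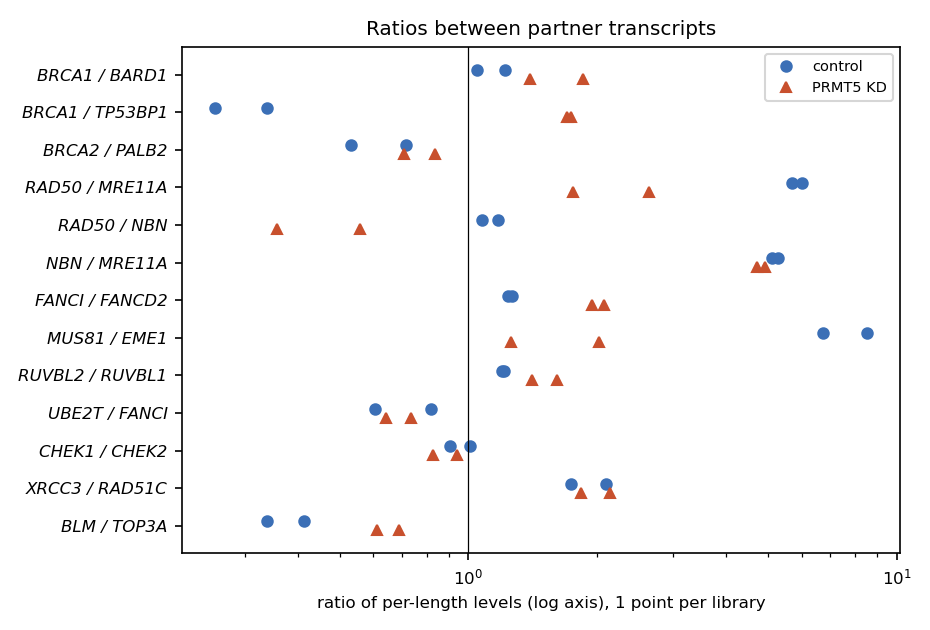
Ratios of transcript levels per length between partner genes in each library, on a log axis, with circles for control and triangles for PRMT5 KD. BRCA1 over TP53BP1 moves to the right, RAD50 over MRE11A or NBN and MUS81 over EME1 move to the left, and the circles and triangles of CHEK1 over CHEK2 lie close together.

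The repair genes stood below the typical gene in control and near it under PRMT5 KD. Per transcript length, the median control level was 4.39 CPM per kilobase over the 43 genes, against 10.1 over all genes tested, and under the PRMT5 KD label it was 11.9, against 10.4. The 9 genes not called higher had a median control level of 12.8, and the 34 called higher 4.08, which is a description, since the calls use the same control libraries. RAD50 and RNF168 came next after the AAA ATPase genes in control, at 22.0 ± 0.0295 and 20.5 ± 0.478 (SD, n = 2), and NBN followed at 19.6 ± 1.13. RNF168 and NBN were closer together than the SD of NBN. Under the PRMT5 KD label RAD51AP1 came next after them at 37.2 ± 0.866, and FANCI, at 36.0 ± 3.39, differed from it by less than its own SD.

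Libraries of the same group also differed in a common direction. Control replicate 1 was above control replicate 2 in 33 of 43 genes (76.7%), against 47.0% of all genes tested, and PRMT5 KD replicate 2 was above PRMT5 KD replicate 1 in 31 (72.1%), against 50.1%. The summed level of the 43 genes was 1476 and 1325 CPM in control against 2438 and 2622 CPM under PRMT5 KD. Proliferation genes moved with them. All 24 such genes stood higher, and 23 were called higher, against 21.2% of all genes tested. Their median log2 fold change was 1.84, and the largest rise was 3.35 for RRM2, the ribonucleotide reductase subunit of S phase. Their summed level was 1593 and 1165 CPM in control against 4152 and 4283 CPM under PRMT5 KD, and control replicate 1 was above control replicate 2 in 21 of the 24. The part of proliferation in the repair gene values was not tested.

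Other homology repair genes moved in both directions. Of 44 partners of these genes, 41 were tested, and their median was 0.46 on the log2 scale. Of the 41, 19 (46.3%) were called higher and 3 (7.3%) lower, against 21.2% and 24.3% of all genes tested. ATM, the kinase that signals double-strand breaks, fell most, by 1.12 on the log2 scale (SE 0.12, FDR 0.000796), while its substrate CHEK2 rose. The other 2 that fell, BABAM2 and ABRAXAS1, encode subunits of the BRCA1-A complex. Of 23 tested genes for end joining and break ends, 7 (30.4%) were called higher and 2 (8.7%) lower, with a median of 0.26. PARP2 rose most, by 1.26, and PRKDC, the DNA-dependent kinase of end joining, fell most, by 1.03. The differences between these lists were not tested.

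**Figure D4:**
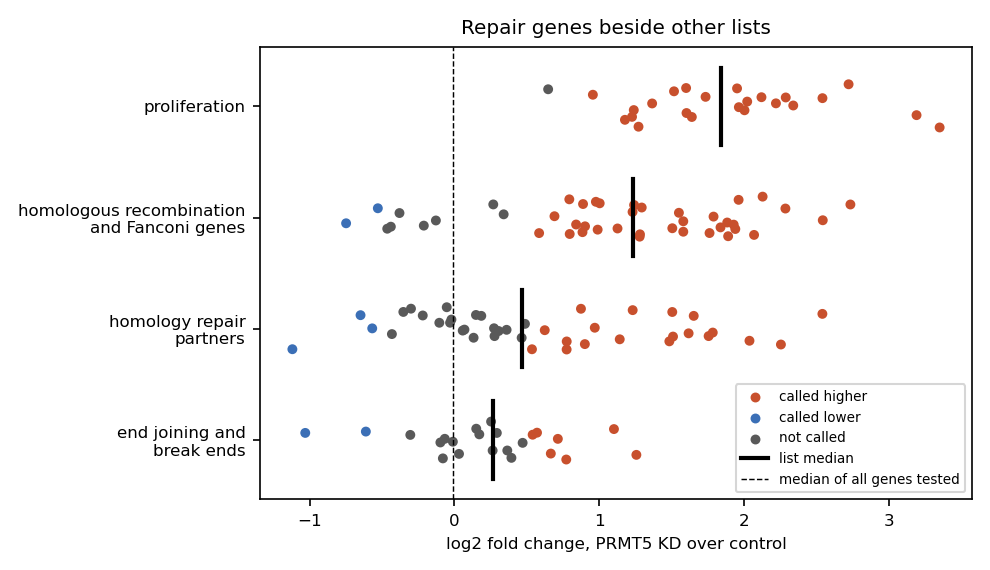
Log2 fold changes of the tested genes of 4 lists, 1 point per gene, coloured by call, with a thick line at each list's median and a dashed line at the median of all genes tested. The medians are 1.84 for proliferation, 1.23 for the homologous recombination and Fanconi genes, 0.46 for their partners and 0.26 for end joining and break ends.

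Longer transcripts had lower fold changes across all genes tested, and 43 repair genes are too few to show whether they followed or departed from this trend. Across genes, which are not independent replicates and share the same 4 libraries, Pearson's r between log2 fold change and log2 transcript length was -0.198 (Spearman's rho -0.215, n = 11897), against -0.0827 (rho -0.0569, n = 43) in the repair genes. In the longest of 10 equal groups of genes by length, the median log2 fold change was -0.38 over all genes and 0.89 over the 6 repair genes it held. BRCA2, whose transcript of 11954 bases was the longest of the 43, rose, as did POLQ at 8757 bases, while RAD50 at 8272 bases fell. With fold changes corrected for GC content and exon length, RAD50 stood at -0.36 (FDR 0.0777), and FANCM at 0.69 was called higher.

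**Figure D5:**
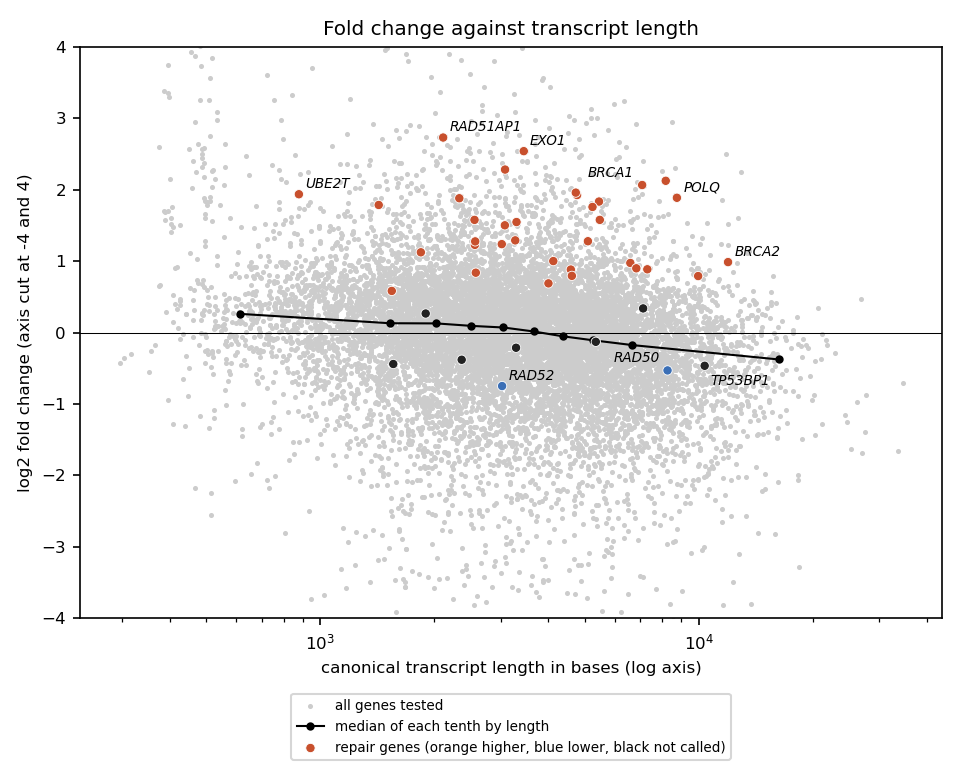
Log2 fold change against the length of the canonical transcript on a log axis, with all genes tested in grey, the medians of 10 equal groups by length as a black line, and the repair genes coloured by call. The line falls from 0.26 in the shortest group to -0.38 in the longest, and BRCA1, POLQ and BRCA2 lie well above it.

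Genes that start beside the outermost GENCODE start of a repair gene were called higher about as often as any gene. This start can lie far from the promoter windows shown above. For RAD52 it is at 990053, while its window runs from 949645 to 949944. Of the 43 tested, 14 had a tested protein-coding neighbour starting in the opposite direction, at most 1000 bases upstream of it, without overlap. Of these 14 repair genes, 11 were called higher (median 0.94 on the log2 scale). Neighbour values come from another fit, which was not limited to protein-coding genes and tested 12652 genes. Values of the repair genes come from the main fit. Of the 14 neighbours, 3 were called higher, 1 was called lower and 10 were not called, with a median of -0.013. The share called higher was 21.4%, against 2694 of the 12652 genes in the same fit and 21.2% of all genes tested in the main fit. Of the 14, 9 had the same sign as their repair gene. NBR1, which starts 236 bases from the outermost GENCODE start of BRCA1, had a log2 fold change of -0.38 (FDR 0.0749). MRPL27, 13 bases from EME1, rose by 1.23, C12orf4 beside RAD51AP1 by 0.79 and SMCR8 beside TOP3A by 0.62. DNASE1 beside SLX4 fell by 1.12. ERC1 beside the outermost RAD52 start, at -0.49 (FDR 0.0141), and GYS1 beside RUVBL2, at 0.38 (FDR 0.0304), passed the FDR but not the fold threshold. ERC1 lay close to the threshold of 0.5 in size, and its call in the main fit is not given here. C12orf4, at 0.79 in the neighbour fit, stood at 0.77 in the main fit. HSCB starts inside the CHEK2 span as set by its outermost start. It is left out of the 14 by that measure, and it rose by 0.63. Distances from the canonical transcript starts were not used here. The neighbours were picked by position alone.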

How the data were processed

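Total RNA of 4 libraries (2 control, 2 PRMT5 KD) was sequenced from a directional kit. The authors deposited estimated counts, 1 table per library, not normalized, in which 86.0% to 86.8% of values were whole. Per the labels, the submitters' processing notes name FastQC, Trim Galore, STAR, Salmon, DESeq2 and GRCh38. The methods instead describe FeatureCounts on protein-coding genes, which the tables, with RefSeq-style symbols and decimals, do not match. Strand use in counting is not given in the sources used here. Of the 44 repair genes, 21 had an estimate that was not whole in at least 1 library (RAD51D and RAD54B in all 4), so their reads may be shared with an overlapping gene.

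Rows of the same name were summed, 28 names turned into dates were left out (0.150% to 0.161% of the counts), and names were matched to GENCODE release 44. Estimated counts were rounded, and the 11897 protein-coding genes that reached an RPKM of 0.5 (union exon length) in both libraries of a group were tested with edgeR 4.0.16 (robust quasi-likelihood, TMM factors, R 4.3.3). CPM are TMM-scaled. Levels per length divide by the canonical transcript. Coordinates are GENCODE gene spans on GRCh38, and promoters are RefSeq windows on GRCh38.p14. The steps were tested on simulated data. Samples were grouped by their titles. Intervals from counts would cover counting error only.

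The repair genes and the lists were chosen with earlier results of these data known, and support nothing beyond their values. By rule, full values are given for the tested genes with the largest and the smallest log2 fold change of each role, for genes called lower, and outside them for PRMT5 and the genes of each list with the largest called change. A result on 1 of these list genes, and another on a marker, are not reported here. BRCA1, RAD51B, FANCM, FANCL, RNF168, the collagen and epithelial markers and the neighbours of named genes were described beyond that rule after their values were seen. With 2 libraries per group, the smallest two-sided p an exact permutation test allows is 0.333, so none was run, and groups of this size were not tested for outlying libraries. Alternatives were DESeq2 1.42.0, other scalings and filters, all gene names, a replicate block, a length and GC correction, a larger fold threshold and each library left out in turn.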

Additional observations from a re-analysis of the deposited data

How the results depend on the processing

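Of the 43 tested repair genes, 30 were called higher in all 14 alternative fits, which kept the fold threshold of 0.5. How many of all genes tested held such a call in every alternative fit is not given here. The main fit called 5418 genes, 46.5% of them higher. Scaling by total counts alone moved the median of all genes to 0.17 and the share of calls that were higher to 61.5%, and RNF168, not called, turned from -0.13 to 0.048. Genes called ranged from 3108 to 5709 when 1 library was left out, the lowest without control replicate 2, when 30 repair genes were called higher and RAD51D, FANCB, NBN and RUVBL2 lost their call. Repair genes called lower ranged from 0 (without control replicate 1) to 2, end joining genes called from 5 (without control replicate 1) to 9, and the PRMT5 log2 fold change from 0.57 to 0.78, with an FDR of 0.0678 without control replicate 2. Of the repair genes, 1 (RAD52) was called lower with total counts, filterByExpr, no filter, the length and GC correction, or that correction with the replicate block. With the fold threshold raised to 1 on the log2 scale, 2560 genes were called, 1032 of them higher. At this threshold 24 repair genes were called higher and 0 lower, and 13 partners and 3 end joining genes were called. RAD51B was called lower without PRMT5 KD replicate 2 (-0.54), and FANCM higher with total counts (0.52) and with the length and GC correction (0.69, and 0.69 when the replicate block was added). The cause of these changes was not tested.

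No source says that equal replicate numbers mark pairs, and the correlation of same-numbered deviations was -0.101. The replicate block gave 5185 calls and changed none of the 43 repair gene calls. A crossed pairing, added after seeing the data, gave 5486 calls, with 34 repair genes higher and 2 lower. With 2 libraries per group, the spread rests on few degrees of freedom, and the lone library left in a group is assumed to vary like the others. RMI2 and EME1, with the fewest counts in control, carry the widest counting error.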
